A study of Mus musculus with 3 samples.

Results

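Expression of 10 transcription factors that direct mast cell and myeloid differentiation was compared between WT and p85α-/- (p85α KO) mast cell progenitors (MCps). The genes were *Gata1*, *Gata2*, *Tal1*, *Lmo2*, *Zfpm1*, *Mitf*, *Sfpi1*, *Cebpa*, *Cebpb* and *Runx1*, taken by name from the array's annotation, with *Spi1* accepted as the current name of *Sfpi1*. All 10 were found, on 15 of the 41157 probes tested, which carry 27951 gene names. *Gata2*, *Mitf*, *Cebpa*, *Cebpb* and *Runx1* have a pair of probes each and the other 5 genes have 1 probe.

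Mice lacking p85α, the regulatory subunit of class IA PI3K encoded by *Pik3r1*, were compared with WT mice, with 3 independent cultures per genotype. Low density mononuclear marrow cells were grown in IL-3 (10 ng/mL) for 7 days, and cells carrying both KIT and the IgE receptor were sorted and then kept for 48 hours with SCF (100 ng/mL), which binds KIT, so that both genotypes had received the same 2 cytokines. Their cDNA was amplified by PCR and hybridized to 3 Agilent mouse oligo arrays, each pairing 1 WT culture in the Cy3 channel with 1 p85α-/- culture in the Cy5 channel. No array had its dyes exchanged, so effects of dye and of genotype cannot be told apart. The strain, sex and age of the mice are not given in the sources used here. In such bulk samples, fewer cells of a type and less RNA per cell cannot be told apart.

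Background knowledge places these factors in a small network. GATA1 and GATA2 bind DNA in complexes with TAL1 and the adaptor LMO2, and the cofactor FOG1, encoded by *Zfpm1*, binds the zinc finger of GATA factors and opposes mast cell fate. MITF drives many mast cell granule and receptor genes, PU.1 (encoded by *Sfpi1*) and the C/EBP factors drive myeloid genes, and RUNX1 acts across blood lineages. In mast cell development, high GATA2 with low C/EBPα accompanies the mast cell fate, whereas C/EBPα accompanies basophil and granulocyte fates.

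The sequences before the start sites of *Tal1* and *Gata2* are shown because these 2 genes had the largest mean log2 ratios of p85α-/- over WT among the 10. The table of RefSeq promoter windows used here (GRCm38.p6) matched 8 of the 10 genes with 13 start sites, and *Sfpi1* and *Lmo2* were not matched. Each line below gives the 250 bases before a start, from 5′ to 3′. Capitals mark matches, on either strand, to any of 6 motifs, namely those of GATA factors (AGATAA or AGATAG or TGATAA or TGATAG), a TAL1 E-box (CAGCTG or CAGATG), a MITF E-box (CACGTG or CATGTG), PU.1 (GAGGAA), RUNX (TGTGGT) and C/EBP (TTGCNNAA). The first *Tal1* window held 1 GATA match and 1 C/EBP match, both on the reverse strand and side by side without overlap, and 1 PU.1 match. The second *Tal1* window and both *Gata2* windows held none of these strings.
Tal1, upstream start, chr4:115056176-115056425, plus strand: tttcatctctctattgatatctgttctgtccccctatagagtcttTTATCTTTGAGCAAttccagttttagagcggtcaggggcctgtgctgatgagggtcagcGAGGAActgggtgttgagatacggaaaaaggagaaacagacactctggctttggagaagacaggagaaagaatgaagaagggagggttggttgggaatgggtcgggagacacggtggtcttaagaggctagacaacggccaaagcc
Tal1, downstream start, chr4:115057561-115057810, plus strand: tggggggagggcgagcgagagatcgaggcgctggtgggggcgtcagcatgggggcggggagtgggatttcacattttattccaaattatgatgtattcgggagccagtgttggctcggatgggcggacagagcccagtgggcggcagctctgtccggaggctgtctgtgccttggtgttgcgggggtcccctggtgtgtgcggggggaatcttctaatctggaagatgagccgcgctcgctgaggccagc
Gata2, upstream start, chr6:88193641-88193890, plus strand: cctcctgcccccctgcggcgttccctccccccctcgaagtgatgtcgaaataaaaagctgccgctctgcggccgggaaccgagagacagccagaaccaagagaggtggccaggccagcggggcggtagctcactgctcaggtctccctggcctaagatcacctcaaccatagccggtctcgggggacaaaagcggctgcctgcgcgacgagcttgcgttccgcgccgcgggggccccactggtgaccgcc
Gata2, downstream start, chr6:88198414-88198663, plus strand: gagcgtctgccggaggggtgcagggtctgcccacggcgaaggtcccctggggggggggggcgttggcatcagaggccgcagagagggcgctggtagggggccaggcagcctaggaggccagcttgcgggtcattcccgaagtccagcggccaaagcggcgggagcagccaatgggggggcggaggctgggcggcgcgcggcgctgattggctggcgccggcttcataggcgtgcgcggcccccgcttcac

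These strings are short and frequent. Among 32851 such windows of the mouse annotation, 26.5% held a GATA string, 25.5% a TAL1 E-box, 17.6% a MITF E-box, 23.3% the PU.1 string, 14% the RUNX string and 9.56% the C/EBP string. Of the 13 windows of the 8 genes, 3 held GATA strings (1 of *Tal1* and 2 of the 3 *Mitf* windows), 3 held the PU.1 string (*Tal1*, *Gata1* and *Runx1*), 2 the C/EBP string (*Tal1* and *Mitf*), 1 the RUNX string (*Mitf*), 1 a MITF E-box (*Runx1*) and 0 a TAL1 E-box. A match is a description of the letters and shows no binding, and no match says only that the letters are not in this window.

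Over the 43379 spots of each array, the median WT signal lay between 71.5 and 141 and the median p85α-/- signal between 207 and 517, the highest being the p85α-/- channel of replicate 2, where 93.8% of spots were well above background. Log2 ratios of different arrays had little in common across probes, with Pearson correlations of 0.01, 0.17 and -0.03 between replicates 1 and 2, 1 and 3, and 2 and 3 (41157 probes, which are not independent). The targeted gene was examined on 4 probes. The brightest *Pik3r1* probe had normalized log2 levels of 9.25, 8.89 and 8.36 in WT and 10.74, 8.86 and 8.69 in p85α-/- cultures, and a mean log2 ratio of 0.59 ± 0.79 (SD, n = 3). On the other 3 probes the means were -0.58, 0.32 and -0.04, and none of the 4 passed the test. Whether these probes lie in the deleted part of the gene is not given in the sources used here, so they do not check the labels. Of the genes used in the sort, *Kit* had a mean log2 ratio of 2.06 ± 0.56, *Fcer1a*, the IgE-binding chain of the receptor, 0.57 ± 3.24, and *Ms4a2*, its beta chain, 1.47 ± 1.66 (SD, n = 3). The *Ms4a2* probe was well above background in WT on 1 array. Of 14 mast cell genes, 13 were well above background in all 6 channels (all probes 62.1%), *Ms4a2* being the exception. So were 9 of 10 macrophage, 11 of 12 erythroid and megakaryocyte, 7 of 10 neutrophil and 3 of 3 basophil genes. This flag therefore does not check the labelled cell type.

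All values below are log2 normalized intensities or, as log2 ratios, differences between the p85α-/- and WT levels on the same array. Levels of different genes come from different probes and are not compared, and summed intensities of a list add over such probes, so that bright probes weigh most. A probe was called where it changed at least 1.5-fold with an unadjusted p under 0.05 (limma), which are the criteria of the study's methods. By limma with Benjamini-Hochberg adjustment, 0 of 41157 probes (0%) had an adjusted p under 0.05, among them 0 of the 15 probes of the 10 factors. At an unadjusted p under 0.05 there were 1829 such probes by limma and 1755 by the methods' t-test. Both call criteria were met by 1829 probes (4.44%) and by 1 of the 15 factor probes, that of *Tal1*. All 15 factor probes were well above background in all 6 channels, compared with 62.1% of all probes, and no spot was saturated.

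The brightest probe stands for a gene with more than 1. By that probe, 7 of the 10 genes had a mean log2 ratio above 0 and 3 had one below it, with a median of 0.41, compared with -0.05 over all probes. The count depended on single arrays. Of the 10, 5 were above 0 without replicate 1 (median 0.32), 8 without replicate 2 (median 0.66) and 5 without replicate 3 (median -0.03). With median centring 9 were above 0 (median 0.89). The ratio was above 0 on all 3 arrays for 3 genes, *Gata2*, *Tal1* and *Sfpi1* (all probes 12.5%), and below 0 on all 3 for 1 gene, *Zfpm1* (all probes 13.3%). The other 6 genes changed sign between arrays. For none of the 15 probes did the 3 WT levels lie apart from the 3 p85α-/- levels (all probes 10.5%). By array, the ratio was above 0 for 6, 4 and 7 of the 10 genes on replicates 1, 2 and 3, with medians of 0.04, -0.22 and 0.46.

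**Figure D1:**
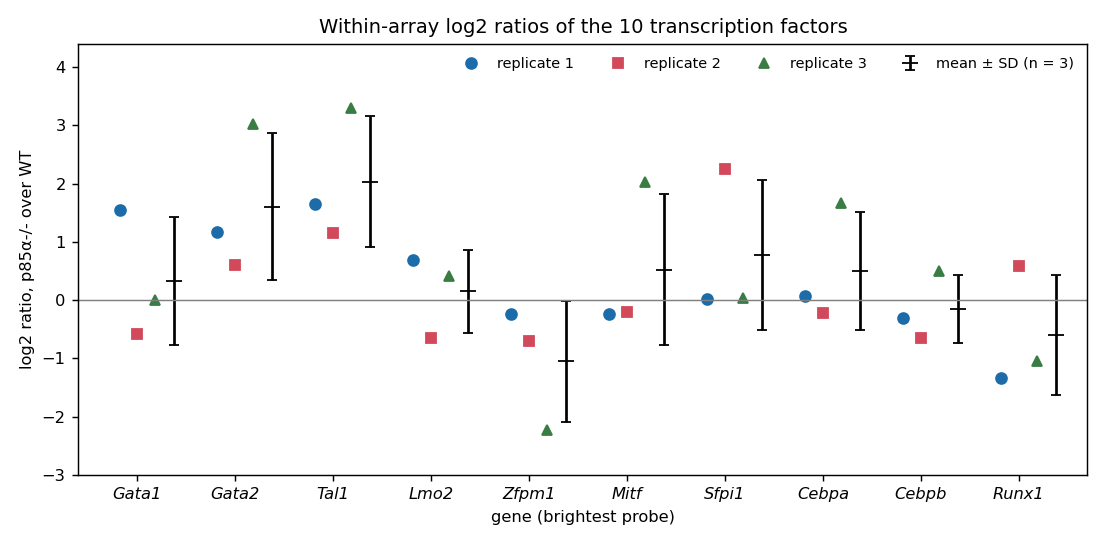
Log2 ratio of p85α-/- over WT (vertical axis) for the brightest probe of each of the 10 genes (horizontal axis), with 1 point per array and the mean ± SD (n = 3) in black. Points of *Tal1* and *Gata2* lie above 0 on all 3 arrays, those of *Zfpm1* lie below 0 on all 3, and for *Sfpi1* 1 point at 2.26 lies apart from points at 0.017 and 0.030.

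*Tal1*, a basic helix-loop-helix factor of blood stem cells, mast cells and the erythroid lineage, was the 1 gene whose probe passed both criteria. Its normalized log2 levels were 12.61, 10.67 and 10.96 in the WT cultures of replicates 1, 2 and 3 and 14.25, 11.82 and 14.27 in the p85α-/- cultures. The p85α-/- level was the higher on every array, but the groups overlapped, since p85α-/- replicate 2 lay below WT replicate 1. The log2 ratios were 1.64, 1.15 and 3.30, with a mean of 2.03 ± 1.13 (SD, n = 3). The 95% interval by limma ran from 0.52 to 3.54 and the adjusted p was 0.908. The call was lost without replicate 1 (mean 2.23 on the other 2 arrays), with loess normalization (mean 1.85), without the pairing by array and by the methods' t-test. The direction was the same under all of these.

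*Gata2*, required in mast cell progenitors and a partner of TAL1, had log2 levels of 12.78, 11.53 and 11.09 in WT and 13.95, 12.15 and 14.11 in p85α-/- cultures on its brightest probe. As for *Tal1*, p85α-/- was the higher on each array, and p85α-/- replicate 2 fell below WT replicate 1. The log2 ratios of 1.17, 0.61 and 3.02 averaged 1.60 ± 1.26 (SD, n = 3, 95% interval -0.06 to 3.26, adjusted p = 0.908 by limma), which did not pass the criteria. The other *Gata2* probe gave levels of 11.40, 11.59 and 10.25 in WT and 13.41, 11.02 and 13.46 in p85α-/- cultures. Its ratios were above 0 on replicates 1 and 3 (2.01 and 3.21) and below 0 on replicate 2 (-0.57), with a mean of 1.55 ± 1.93. Both probes lie near each other on chromosome 6, at 88281934-88281993 and 88281461-88281520 in the positions given with the array, which name no genome build. The brightest *Gata2* probe met both criteria with median centring (2.86), where *Tal1* had 3.36, and with dim probes left out (1.60). Its means of 2.10 without replicate 2 and 0.89 without replicate 3 were not called. The other *Gata2* probe met both criteria without replicate 2 (2.61).

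**Figure D2:**
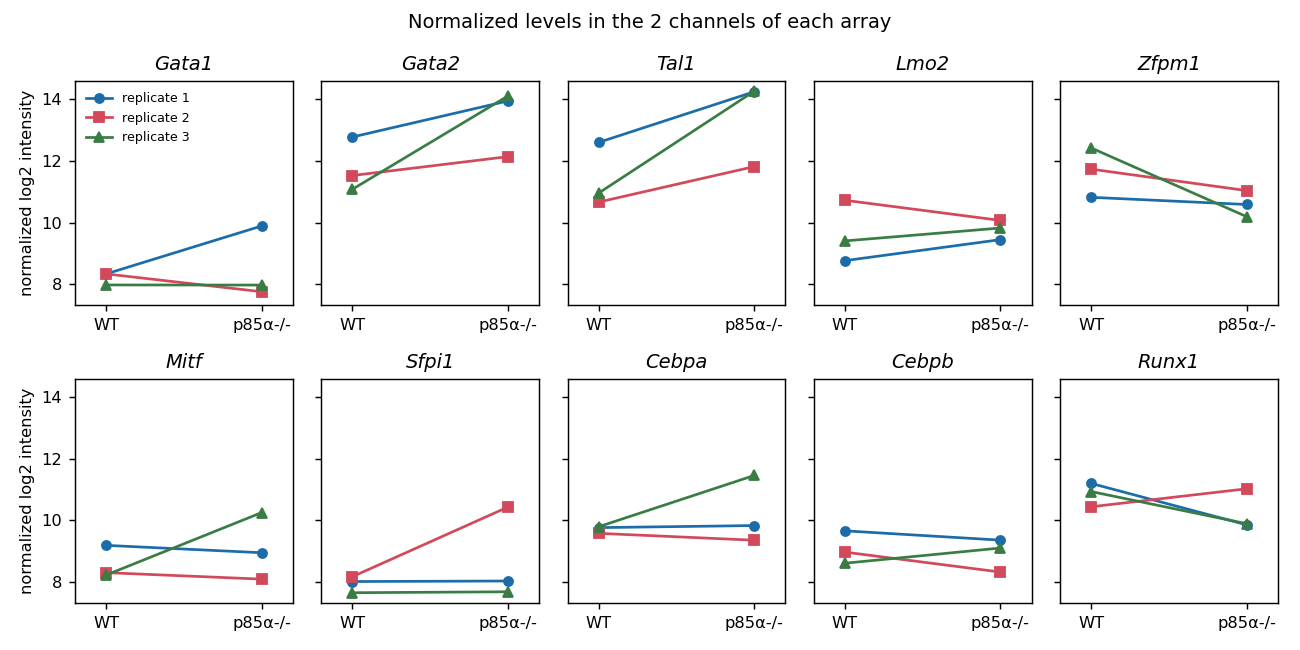
Normalized log2 intensity (vertical axis) in the WT and p85α-/- channel of each array, 1 panel per gene and 1 line per array (n = 3). The p85α-/- point is the higher on every array for *Gata2*, *Tal1* and *Sfpi1* and the lower on every array for *Zfpm1*, with levels of the 2 genotypes overlapping in all 10 panels.

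Neutrophil genes were examined beside these values. The summed normalized intensity of 10 neutrophil genes was 10333, 19312 and 9332 in WT and 70397, 3362 and 228327 in p85α-/- cultures of replicates 1, 2 and 3. It was higher in p85α-/- on replicates 1 and 3, the arrays with the larger *Tal1* and *Gata2* ratios, and lower on replicate 2. The brightest probe of the list, that of the myeloperoxidase gene *Mpo*, had log2 ratios of 2.90, -3.37 and 5.39 (mean 1.64 ± 4.52) and did not pass the criteria. Without *Mpo* the sums were 4228, 2344 and 4630 in WT and 24804, 1724 and 30698 in p85α-/- cultures. By gene, 9, 6 and 5 of the 10 had a log2 ratio above 0 on replicates 1, 2 and 3. Of these 10 genes, 2 passed both criteria, the calcium-binding protein genes *S100a8* (2.14 ± 1.56) and *S100a9* (2.55 ± 1.79) (all probes 4.44%), and 0 passed an unadjusted p under 0.05 by the methods' t-test. The list median was 0.97, with 6 genes above 0 and 4 below it. *S100a8* was well above background in WT on 2 arrays, *Csf3r*, below 0 in the mean, on 1, and *Lcn2* on none. The part of these genes in the *Tal1* and *Gata2* values was not tested.

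*Gata1*, the GATA factor of erythroid, megakaryocyte, eosinophil and mast cells, had log2 levels of 8.34, 8.34 and 7.98 in WT and 9.90, 7.76 and 7.98 in p85α-/- cultures. Only p85α-/- replicate 1 stood above the WT range. The log2 ratios of 1.55, -0.58 and -0.0036 averaged 0.32 ± 1.10 (SD, n = 3, adjusted p = 0.938 by limma), and the mean without replicate 1 was -0.29. *Lmo2*, the adaptor of the complex, had levels of 8.77, 10.73 and 9.41 in WT and 9.45, 10.08 and 9.83 in p85α-/- cultures, all 3 within the WT range. Its log2 ratios were 0.68, -0.65 and 0.42, with a mean of 0.15 ± 0.71 (adjusted p = 0.965 by limma) that was -0.12 without replicate 1.

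*Zfpm1*, the gene of FOG1, was lower in p85α-/- on each array. Its log2 levels were 10.83, 11.74 and 12.43 in WT and 10.59, 11.04 and 10.20 in p85α-/- cultures. Each p85α-/- level was below the WT level of its array, although p85α-/- replicate 2 lay above WT replicate 1. The log2 ratios of -0.23, -0.70 and -2.23 averaged -1.05 ± 1.04 (SD, n = 3), with a 95% interval from -2.47 to 0.37 and an adjusted p of 0.908 (limma), so the difference did not pass the test. With median centring the mean was -0.11, and without replicate 3 it was -0.46. Within the complex, then, *Tal1*, *Gata2*, *Gata1* and *Lmo2* had mean ratios above 0 and *Zfpm1* one below 0, and the 95% interval of *Tal1* was the 1 interval of the 5 that left out 0.

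*Mitf*, a basic helix-loop-helix leucine zipper factor needed for mast cell maturation, had log2 levels of 9.19, 8.31 and 8.23 in WT and 8.95, 8.10 and 10.26 in p85α-/- cultures on its brightest probe. Only p85α-/- replicate 3 was above the WT range. The log2 ratios of -0.24, -0.21 and 2.02 averaged 0.53 ± 1.30 (SD, n = 3, adjusted p = 0.916 by limma), and the mean without replicate 3 was -0.22. The other *Mitf* probe had ratios of -0.59, -1.85 and 0.58, with a mean of -0.62 ± 1.22 (adjusted p = 0.908). Replicate 3 was the 1 array with a ratio above 0 on both probes, and the 2 means had opposite signs.

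The *Gata1* probe and the brightest *Mitf* probe were printed 10 times on each array, of which 8 to 10 spots passed the outlier flags. Spots of an array agreed closely. For *Gata1* the SD between spots was 0.063, 0.072 and 0.063 on replicates 1, 2 and 3, compared with an SD of 1.10 between arrays. For *Mitf* it was 0.034, 0.082 and 0.051, compared with 1.30 between arrays. On replicate 3 all spots of this *Mitf* probe that were used lay between 1.93 and 2.07, and on replicates 1 and 2 all lay below 0. The spread between arrays was thus 15.3 to 37.9 times that between spots, and covers differences between cultures, amplifications, labelings and hybridizations together.

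**Figure D3:**
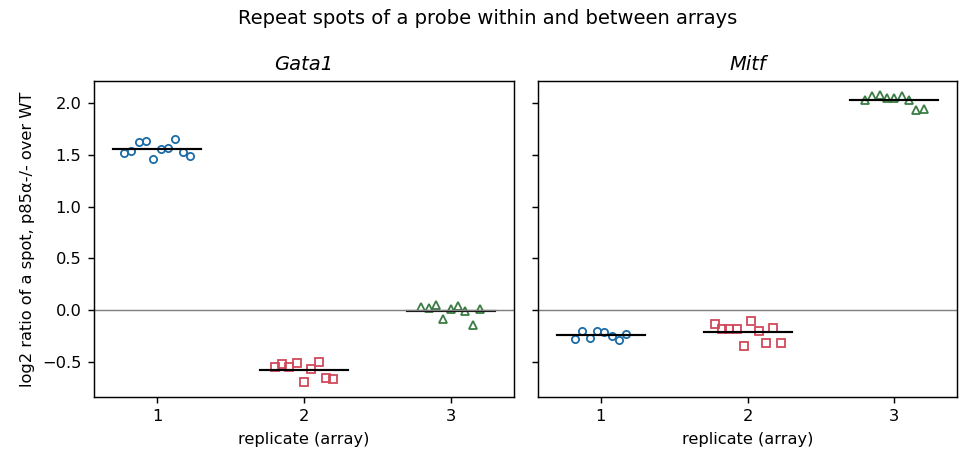
Log2 ratio of p85α-/- over WT of each repeat spot (open symbols) on each array, with the array's mean as a black line, for *Gata1* and the brightest *Mitf* probe. Spots of 1 array cluster within SDs of 0.034 to 0.082 while the arrays lie far apart.

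*Sfpi1*, the gene of PU.1, was above 0 on every array by sign, but 1 array carried the difference. Its log2 levels were 8.02, 8.18 and 7.66 in WT and 8.04, 10.44 and 7.69 in p85α-/- cultures. Only p85α-/- replicate 2 left the WT range, with a log2 ratio of 2.26 compared with 0.017 and 0.030 on replicates 1 and 3. The mean was 0.77 ± 1.29 (SD, n = 3, adjusted p = 0.908 by limma) and was 0.02 without replicate 2, the array on which the *Tal1* and *Gata2* ratios were smallest.

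*Cebpa*, which drives granulocyte and basophil genes, had log2 levels of 9.77, 9.58 and 9.80 in WT and 9.84, 9.36 and 11.46 in p85α-/- cultures on its brightest probe. Replicate 3 alone gave a high p85α-/- level. The ratios of 0.07, -0.22 and 1.66 averaged 0.50 ± 1.02 (SD, n = 3, adjusted p = 0.908 by limma), and -0.078 without replicate 3. The other *Cebpa* probe was lower in p85α-/- on all 3 arrays, with ratios of -1.44, -0.73 and -0.25 and a mean of -0.80 ± 0.60 (adjusted p = 0.908), so that its 2 probes had means of opposite sign. *Cebpb*, a stress- and cytokine-induced C/EBP factor, had levels of 9.66, 8.97 and 8.61 in WT and 9.36, 8.33 and 9.11 in p85α-/- cultures on its brightest probe, which overlapped widely. Its mean ratio was -0.15 ± 0.58 (adjusted p = 0.958), and median centring turned it to 0.55. The other *Cebpb* probe varied most of the 15, with ratios of 2.21, -2.94 and 2.33 and an SD of 3.01 around a mean of 0.53. Without replicate 2 its mean was 2.27 and both call criteria were met, and without replicates 1 and 3 in turn it was -0.31 and -0.37, neither called.

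*Runx1*, a partner of CBFβ, was the third gene with a mean below 0 on its brightest probe. Log2 levels were 11.20, 10.45 and 10.94 in WT and 9.86, 11.03 and 9.90 in p85α-/- cultures. On replicates 1 and 3 p85α-/- was the lower and fell under the whole WT range, whereas on replicate 2 it was the higher. The ratios of -1.34, 0.58 and -1.04 averaged -0.60 ± 1.04 (SD, n = 3, adjusted p = 0.908 by limma), a mean that median centring turned to 0.25. Without replicate 2 the mean was -1.19 and both call criteria were met, without replicate 1 it was -0.23 and without replicate 3 it was -0.38, neither of them called. The other *Runx1* probe, made to a different transcript accession, had ratios of -1.45, 1.25 and 0.10 and a mean of -0.03 ± 1.35.

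**Figure D4:**
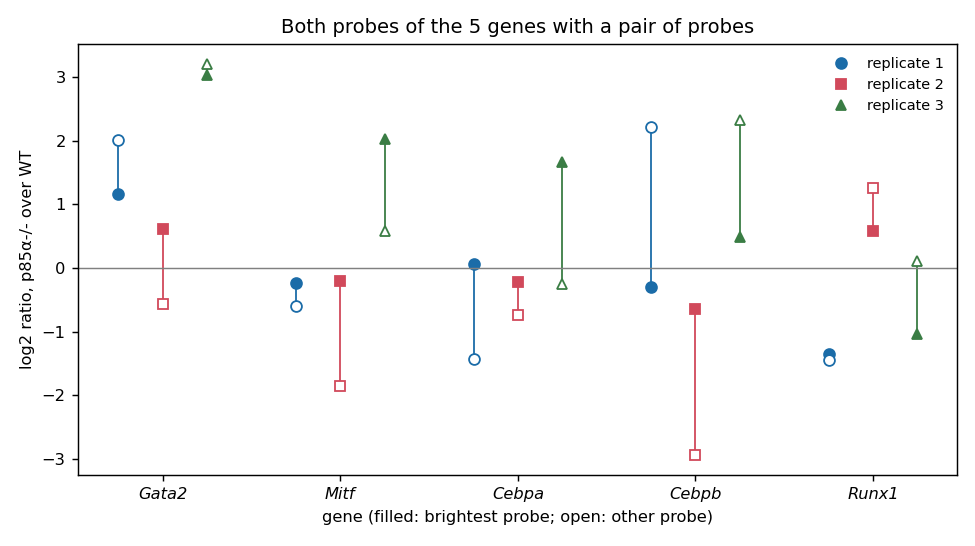
Log2 ratio (p85α-/- over WT) by array for both probes of the 5 genes with a pair of probes, the brightest probe filled and the other open, joined by a line. Mean ratios of the 2 probes have opposite signs for *Mitf*, *Cebpa* and *Cebpb*, and the widest gap is that of *Cebpb* on replicate 1.

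Across the 15 probes, the SD between arrays ranged from 0.58 to 3.01 with a median of 1.13, compared with 0.67 over all probes and 0.80 over probes well above background in all 6 channels. The mean exceeded its SD for 4 of the 15 probes (26.7%, all probes 20.3%). Pairs of arrays gave a ratio of the same sign for 6 (replicates 1 and 2), 7 (replicates 1 and 3) and 5 (replicates 2 and 3) of the 10 genes.

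Of 38 partner and related factors, 36 were found by name on the arrays, and *Tfe3* and *Cebpe* were not matched. By limma 0 of the 36 passed both criteria or an unadjusted p under 0.05 (all probes 4.44%). By the methods' t-test, which is unpaired, 1 passed an unadjusted p under 0.05. This was *Spib*, the gene of a PU.1 relative (-0.50 ± 0.36, unadjusted p = 0.15 by limma on the paired ratios). The median log2 ratio of the 36 was -0.001, with 18 above 0 and 18 below it. The range ran from -1.49 ± 3.53 for *Tcf3*, which encodes the E-protein partners of TAL1, to 1.79 ± 1.80 for *Ikzf1*, the gene of the zinc finger factor Ikaros. *Tcf3* had ratios of -4.00, -3.02 and 2.54 and *Ikzf1* ratios of -0.23, 2.38 and 3.22, so neither kept its sign over the arrays. The brightest of the 4 probes matched to *Tcf3* carries the name *Tcfe2a*. The highest of the 4 had a mean of 1.38, and whether all 4 stand for this gene was not checked. The ratio was above 0 on all 3 arrays for 3 of the 36 (8.33%), *Tcf4*, *Gfi1* and *Myb*, and below 0 on all 3 for 4 (11.1%), *Tcf12*, *Cbfb*, *Runx2* and *Spib*. *Cbfb*, which encodes the partner subunit of RUNX1, had ratios of -3.12, -0.33 and -0.91 and a mean of -1.46 ± 1.47 (adjusted p = 0.908 by limma). These are values of the brightest probes, and other probes of *Cbfb*, *Runx2*, *Tcf12* and *Myb* had means of the opposite sign, up to 0.89, 1.54 and 0.24 for the first 3 and down to -0.65 for *Myb*. *Gfi1* was well above background in WT on 1 array.

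Of the 14 mast cell genes measured, 13 had a mean log2 ratio above 0, with a median of 1.54, and 5 passed both criteria (all probes 4.44%), all higher in p85α-/-. These were the SCF receptor *Kit* (2.06 ± 0.56), the Fc receptor chain *Fcer1g* (1.76 ± 0.82), the chymase *Cma1* (2.37 ± 1.76), the granule proteoglycan *Srgn* (1.48 ± 0.60) and the IL-33 receptor *Il1rl1* (2.59 ± 1.18). By the methods' t-test 2 of the 14 passed an unadjusted p under 0.05, *Kit* and *Srgn*. The summed intensity of all 14 ranged from 42017 to 73744 in WT and from 109436 to 194304 in p85α-/- cultures, without overlap. By gene, the levels of 6 of the 14 did not overlap (all probes 10.5%). Sums of the macrophage list, given below, did not overlap either and were the lower in p85α-/-. Array medians of the mast cell list were 1.34, 2.14 and 0.78 on replicates 1, 2 and 3, compared with 0.04, -0.22 and 0.46 for the 10 factors, so that replicate 2 was highest for the first and lowest for the second. The part of this shift in the *Tal1* and *Gata2* values was not tested.

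Macrophage (0 of 10), erythroid and megakaryocyte (0 of 12), and basophil (0 of 3) markers had no call (all probes 4.44%). Lists this short can hold no call at that share. For 10 macrophage genes the means ran from -1.39 (*Adgre1*, which encodes the F4/80 antigen) to 0.91 (*Mrc1*, the mannose receptor gene, not well above background in WT), with a median of -0.04 and summed intensities of 7909 to 9699 in WT and 6398 to 7342 in p85α-/- cultures. For 12 of 13 erythroid and megakaryocyte genes (*Pf4* was not matched) they ran from -1.13 (*Slc4a1*, the band 3 anion exchanger gene) to 1.01 (*Itga2b*, the platelet integrin gene), with a median of -0.0043 and summed intensities of 13079 to 17674 in WT and 7384 to 21296 in p85α-/- cultures. For 3 basophil genes they ran from -0.14 (*Prss34*) to 0.93 (*Cd200r3*), with summed intensities of 1447 to 9251 in WT and 5060 to 6703 in p85α-/- cultures. At an unadjusted p under 0.05, both limma and the methods' t-test gave 0 genes in each of these 3 lists.

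**Figure D5:**
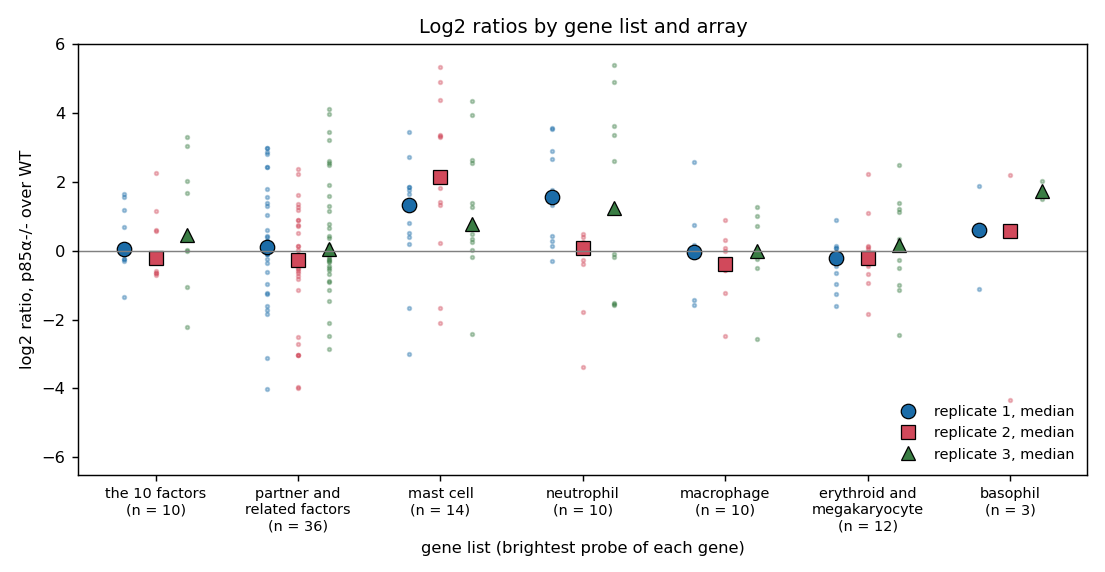
Log2 ratio of p85α-/- over WT (vertical axis) by gene list and array, with 1 small dot per gene and a large symbol at the array's median. Medians of the mast cell list lie at 1.34, 2.14 and 0.78 on replicates 1, 2 and 3, and those of the 10 factors at 0.04, -0.22 and 0.46.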

How the data were processed

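Gene expression of SCF-stimulated WT and p85α-/- MCps was measured on 3 arrays with 2 dyes, all on 1 slide scanned on 1 day. The deposited intensity values are mean spot signals with local background medians, extracted by the authors with Agilent Feature Extraction. A second deposited table gives log10 ratios by probe, but for replicates 2 and 3 only 190 and 226 of 40929 probes with 1 spot carried the scanner's log10 ratio of the same probe (replicate 1: 40929, tolerance 1.5e-05), so it was not used.

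Background was removed by normexp with an offset of 50, and quantile normalization, which the study's methods name, was run over the 6 channels, in R 4.3.3 with limma 3.58.1. Control and outlier spots were left out and spots of a probe averaged. Log2 ratios within arrays were tested against 0 with limma (lmFit, eBayes), with Benjamini-Hochberg adjustment over 41157 probes. The procedure was tested on simulated data. Recovery of changed probes was required there only at a spread between arrays below that of these data. The simulation therefore does not show what was missed here. Because cDNA was amplified before labeling, ratios can be distorted gene by gene. No column of unknown origin was found. With 3 arrays, their number limits the precision.

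The 10 genes and all lists were chosen with earlier results of these data known. Every probe of the 10 genes was reported, *Pik3r1* as the targeted gene and *Kit*, *Fcer1a* and *Ms4a2* as genes of the sort. From each list (partner and related factors, mast cell, neutrophil, macrophage, erythroid and megakaryocyte, and basophil genes), genes past both criteria were named or, where there were none, the highest and the lowest. Those singled out beside them (*Mpo*, *Csf3r*, *Lcn2*, *Tcf4*, *Gfi1*, *Myb*, *Tcf12*, *Cbfb*, *Runx2*, *Spib*) were chosen after their values were seen. Alternative settings were normalization by loess with Aquantile or by median centring, uncorrected signals (no background subtraction), processed signals of the software, outlier spots kept and dim probes left out. Further ones were each replicate left out, no pairing by array (limma), the methods' t-test (unpaired) and, for genes with a pair of probes, their mean.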

Additional observations from a re-analysis of the deposited data

How the results depend on the processing

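Across the 11 alternative fits over all probes, none of the probes passed an adjusted p of 0.05 (0 in each), with a lowest adjusted p between 0.368 and 0.99995 and 1555 to 3165 probes at an unadjusted p under 0.05. The count of probes past both criteria was 1829 and the methods' t-test gave 1125. Leaving out a replicate gave 1555 to 3165, the highest without replicate 2. Of the factor probes 1 was called (*Tal1*). This became 0 with loess, 0 without the pairing by array (no replicate block) and 0 by the methods' t-test, and 2 (*Gata2* and *Tal1*) with median centring and 2 with dim probes left out. Without single replicates it was 0 to 4, namely 0 without replicate 1, 4 without replicate 2 (those of *Tal1*, the brightest of *Runx1* and the dimmer ones of *Gata2* and *Cebpb*) and 1 without replicate 3. No paired analysis beyond the ratio within arrays was possible because each array holds 1 culture of each genotype. With median centring the all-probe median went from -0.05 to 0.09, and 9 of the 10 genes were then above 0. The share of called probes higher in p85α-/- was 62.6%, and 91.4% with median centring, 72.3% with processed signals, 54.0% by the methods' t-test and 47.5% without replicate 2.

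Signs turned for 6 genes. Without single replicates the mean log2 ratio on a gene's brightest probe ranged from -0.29 to 0.78 for *Gata1*, from -0.22 to 0.91 for *Mitf*, from -0.078 to 0.86 for *Cebpa*, from -0.47 to 0.10 for *Cebpb* and from -0.12 to 0.55 for *Lmo2*. Averaging all probes of a gene gave -0.047 for *Mitf*, -0.15 for *Cebpa* and 0.19 for *Cebpb*. Median centring gave 0.55 for *Cebpb* and 0.25 for *Runx1*. The cause was not tested. *Gata2*, *Tal1*, *Sfpi1* and *Zfpm1* kept their sign under each alternative run. Without single replicates their means ranged from 0.89 to 2.10, from 1.40 to 2.47, from 0.02 to 1.14 and from -1.46 to -0.46, and that of *Runx1* from -1.19 to -0.23. The alternative based on the authors' table was not run, because its rows for replicates 2 and 3 do not stand on their own probes.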
